A study of Mus musculus with 2 samples.

Results

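The genes described are 10 of the 32285 genes in the deposited matrices: 8 interferon-inducible GTPases (Gbp2, Gbp3, Gbp4, Gbp7, Iigp1, Igtp, Irgm1 and Ifi47) and 2 chemokine ligands of the receptor Cxcr3 (Cxcl10 and Cxcl9). They were chosen by symbol, with the difference between the libraries already known, and were followed over the T cell states and the other lineages found among the barcodes. All came from spleens of C57BL/6J mice at 7 days of age, from which YFP+7AAD- regulatory T cells (Tregs) had been sorted for droplet single-cell RNA sequencing. The WT library came from Foxp3Cre mice and the KO library from Foxp3Cre mice with floxed Zfp335 (Zfp335 fl/fl), so both carried the Cre. In this allele YFP and Cre are read from the Foxp3 locus, so that Cre acts where Foxp3, the transcription factor of Tregs, is or has been expressed. There was 1 library per genotype, and the number of mice behind each was not given in the sources used here. No difference between the libraries could therefore be tested, and every interval below is a 95% interval for counting error only.

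Interferons signal through JAK kinases and STAT transcription factors, which bind short promoter elements called ISRE and GAS and so switch on a shared set of genes. Among these are the guanylate-binding proteins (Gbp genes) and the immunity-related GTPases (Iigp1, Igtp, Irgm1 and Ifi47), which gather on vacuoles that hold microbes and help to break or clear them. Cxcl9 and Cxcl10 are secreted chemokines, best known as products of interferon-gamma-stimulated myeloid and stromal cells, that draw in T cells carrying Cxcr3.

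To show which of these elements the members carry, the 250 bases before each transcription start were read from the RefSeq promoter table (GRCm38.p6), which held 8 of the 10 members. Gbp4 and Iigp1 were not matched. Each element was searched on both strands and counted only where both of its letter blocks matched in full: the ISRE core as a pair of GAAA blocks 2 bases apart, the GAS element as TTC and GAA 3 bases apart, and the kappa B element as GGGA and TTCC 2 bases apart. A gene counted if any of its windows matched. An ISRE core was in a window of 6 members (Gbp2, Gbp3, Gbp7, Igtp, Irgm1 and Cxcl10), against 3.46% of all 27025 genes. A GAS element was in 2 members (Gbp7 and Igtp), against 8.13% of genes, and a kappa B element in 1 (Cxcl10), against 1.36%. The stretches around the ISRE cores are given so that the members can be compared, each from 5′ to 3′ on the gene's strand, with ISRE and GAS matches in capitals:
Gbp2, chr3:142620564-142620653 (+): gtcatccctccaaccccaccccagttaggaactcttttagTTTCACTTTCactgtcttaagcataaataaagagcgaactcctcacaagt
Gbp3, chr3:142559959-142560043 (+): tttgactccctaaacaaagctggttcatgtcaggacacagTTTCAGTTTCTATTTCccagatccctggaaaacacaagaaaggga
Gbp7, chr3:142530243-142530332 (+): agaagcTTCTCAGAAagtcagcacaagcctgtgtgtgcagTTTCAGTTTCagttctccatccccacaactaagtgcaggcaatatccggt
Igtp, chr11:58199482-58199555 (+): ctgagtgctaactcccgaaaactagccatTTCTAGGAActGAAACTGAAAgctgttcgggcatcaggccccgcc
Irgm1, chr11:48871421-48871490 (-): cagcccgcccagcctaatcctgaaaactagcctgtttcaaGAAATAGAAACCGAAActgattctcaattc
Cxcl10, chr5:92349053-92349139 (-): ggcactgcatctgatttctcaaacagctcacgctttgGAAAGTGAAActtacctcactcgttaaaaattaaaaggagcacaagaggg

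The capitals show that the cores of the 3 Gbp genes read as the reverse complement of the searched letters and those of the other 3 genes as the letters themselves. In Gbp3 and in Irgm1 a pair of cores overlapped. The cores of 5 members started within 59 bases of the transcription start, whereas that of Cxcl10 started 213 bases before it. The windows of Cxcl9 and Ifi47 held none of the 3 letter patterns. A match says only that the letters are there.

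The WT library held 14524 barcodes and the KO library 18134, and 70 barcode sequences occurred in both. After filters on genes, mitochondrial UMIs and doublets, 7650 WT barcodes with 50750057 UMIs and 12666 KO barcodes with 53461503 UMIs were kept, with medians of 4976.5 and 2731.5 UMIs. Zfp335 had 412 UMIs in WT and 55 in KO, a KO to WT ratio of 0.127 (0.0938 to 0.168). Clustering without the members and the pathway genes gave 16 clusters. Cluster 1 was called resting Treg-like, cluster 5 activated Treg-like, clusters 3 and 8 effector Treg-like and cluster 6 cycling-like. Cluster 1 had none of its markers among its 10 leading genes and was named by the mean of the list. T lineage clusters 2, 4, 7 and 14 stayed unnamed, and 2 and 7, led by Mpo, Prtn3, Camp, Ngp and globin genes, were held almost wholly by KO (3543 KO and 101 WT barcodes in cluster 2, and 1159 and 14 in cluster 7). Although the sort was for Tregs, 556 WT and 789 KO barcodes fell into other lineages, of which 277 and 554 were erythroid-like. Foxp3 itself was at 40.6 CPM in WT and 44.4 CPM in KO over the T lineage clusters, against 6.18 and 9.84 CPM over the other lineages.

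The resting Treg-like class held 2154 WT and 4524 KO barcodes, more than any other named class over both libraries. There, all 8 GTPases and Cxcl10 were higher in the KO library, with every interval of the ratio above 1. The 8 GTPases together stood at 454 CPM (441 to 468) in WT and 908 CPM (895 to 922) in KO, a ratio of 2.00 (1.93 to 2.07). CPM are a gene's UMIs divided by all UMIs of the class in that library, on the usual per-million scale. The ratio reached at least 2 for 5 of the 9 members with 200 or more UMIs, and 0.447% of 7826 genes did so upwards and 0.92% downwards. Since this contrast chose the members, that count describes them and supports nothing. The median log2 ratio of the 9 members was 1.08, that of all genes -0.07.

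Among the guanylate-binding proteins, Gbp2 differed most. WT held 348 Gbp2 UMIs, which is 37.4 CPM (33.6 to 41.5), and KO held 2369, which is 124 CPM (120 to 130), a ratio of 3.33 (2.97 to 3.74). Gbp4 stood at 65.6 CPM in WT and 100.5 CPM in KO, 1.53-fold higher (1.40 to 1.68). Gbp3, with 150 and 462 UMIs, was 1.51-fold higher (1.25 to 1.82). Gbp7, with 1016 and 2784 UMIs, was 1.34-fold higher (1.25 to 1.44). Gbp2 thus lay apart from the other 3, whose intervals overlapped one another. Gbp4 shares sequence with other Gbp genes on the same chromosome, so its reads may be split among them.

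Among the immunity-related GTPases, Iigp1 (also called Irga6, an effector GTPase that coats vacuoles) had the largest ratio. WT barcodes were at 10.4 CPM (8.45 to 12.7) and KO barcodes at 48.1 CPM (45.0 to 51.3), a ratio of 4.61 (3.74 to 5.75). Igtp, also called Irgm3, stood at 90.6 CPM in WT and 214 CPM in KO, a ratio of 2.37 (2.20 to 2.55). Ifi47, also called Irgd, stood at 105 CPM in WT and 221 CPM in KO, a ratio of 2.11 (1.97 to 2.26). Irgm1, a regulator that holds effector GTPases in check, had the smallest ratio of these, 1.45 (1.23 to 1.72), from 20.3 to 29.5 CPM. The regulators Igtp and Irgm1 therefore differed from each other beyond counting error. Among the members, Ifi47 lay just inside the 2-fold limit and Gbp4 was the nearest outside it.

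Cxcl10 had 58 UMIs in WT and 564 in KO. These are 6.23 CPM (4.73 to 8.05) and 29.6 CPM (27.2 to 32.2), and the ratio of 4.76 (3.63 to 6.35) ranked 1 among the 7826 genes. Iigp1 ranked 3, Gbp2 7, Igtp 22 and Ifi47 31, whereas Gbp7 ranked 326. Cxcl9 had no UMI in either library in this class, which allows up to 0.322 CPM in WT and 0.158 CPM in KO at 3 counts.

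**Figure D1:**
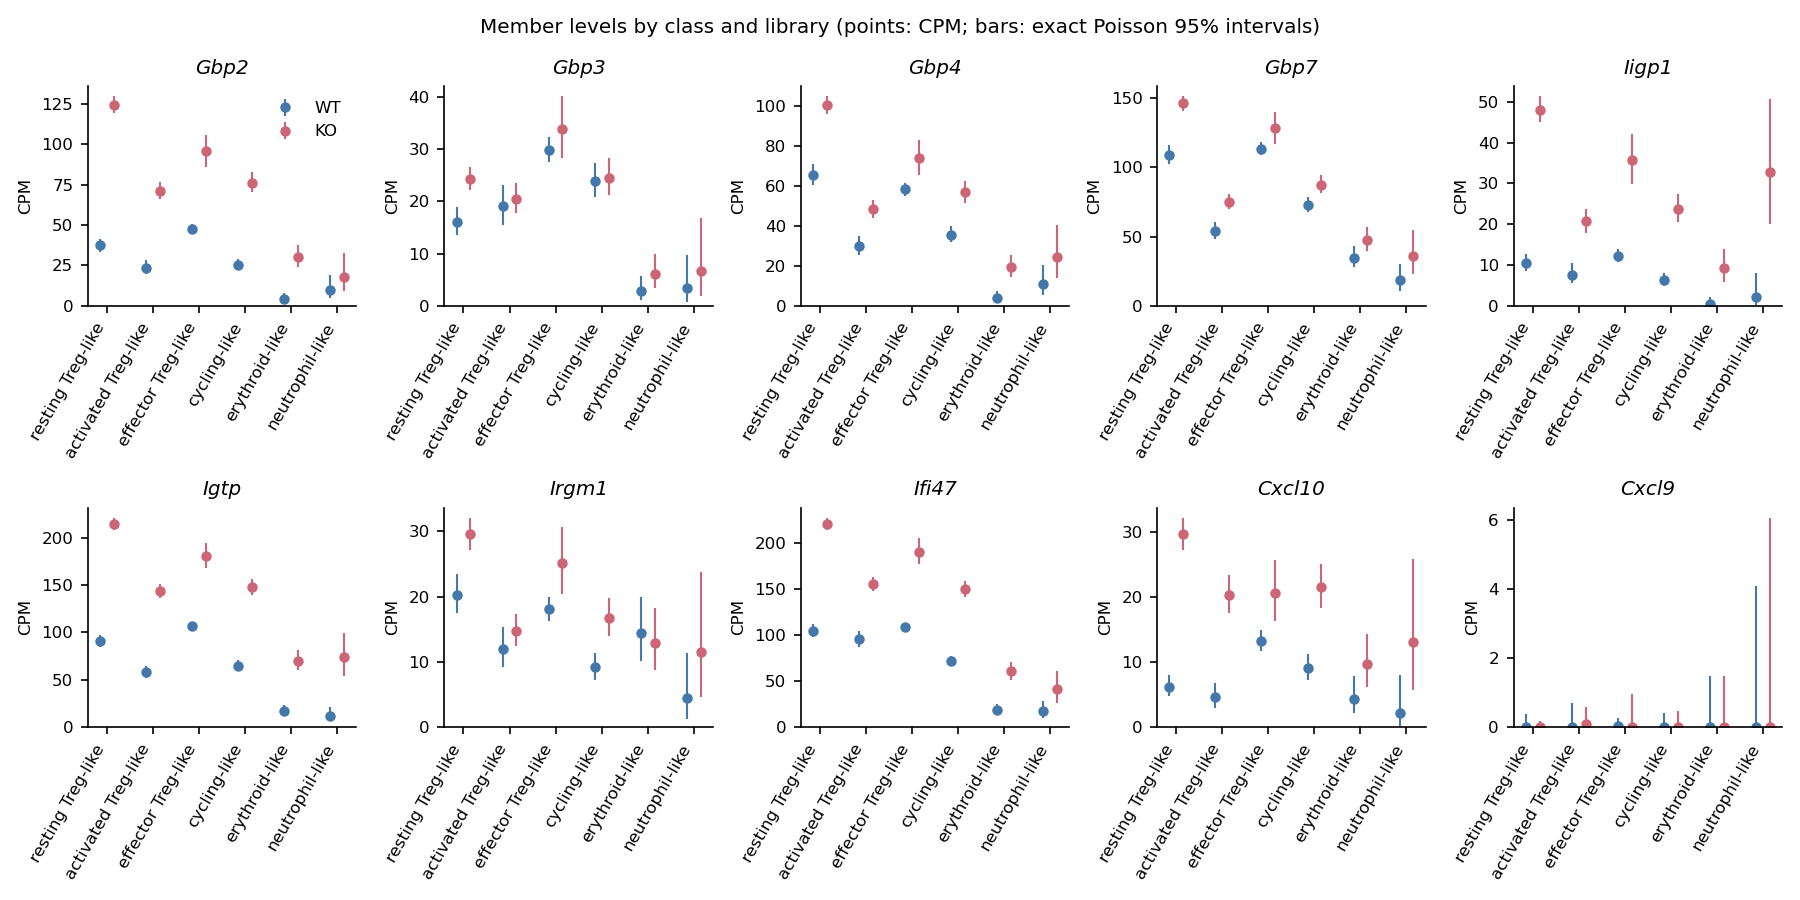
CPM of each member (y axis, linear) in 6 classes (x axis) for WT (blue) and KO (red), with exact Poisson 95% intervals as bars. Gbp2, Igtp, Ifi47 and Iigp1 have the higher value in KO in each class shown, though the intervals of Gbp2 and of Ifi47 overlap in neutrophil-like barcodes, Gbp3 lies at similar levels in activated Treg-like and cycling-like barcodes, and Cxcl9 lies at or near 0 throughout.

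Markers of other cell types in the resting Treg-like class were compared as well. The summed level of 10 erythroid markers was 522 CPM in WT and 886 CPM in KO. That of 10 neutrophil markers was 117 and 80.2 CPM, that of 9 macrophage markers 7.30 and 6.04 CPM, and that of 8 dendritic cell markers 85.7 and 105 CPM. C1qa and Cd5l were at 0 in WT, Vcam1 and Cd5l in KO, and Itgax and Xcr1 in both. Erythroid markers thus moved with the members, and their part in the member ratios was not tested. The summed T lineage markers were at 5857 and 5983 CPM, a ratio of 1.02 (1.01 to 1.03).

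Over the other named T cell states the GTPases were also higher in KO, by different amounts. The summed ratio was 1.83 (1.73 to 1.94) in activated Treg-like, 1.88 (1.79 to 1.97) in cycling-like and 1.54 (1.48 to 1.61) in effector Treg-like barcodes. The interval in effector Treg-like barcodes lay below those of the other named states. Among the unnamed T lineage clusters, the ratio was 2.09 (1.57 to 2.86) in cluster 2 and 2.35 (2.07 to 2.66) in cluster 4. It was 2.11 (1.51 to 2.97) in cluster 14. In cluster 7, with 8 WT and 1040 KO UMIs, the ratio of 1.41 (0.713 to 3.27) held 1. The effector Treg-like class was made of different clusters in the libraries: cluster 3 held 1783 of its WT and 121 of its KO barcodes, and cluster 8 held 589 and 354. Within cluster 3 the GTPase ratio was 1.35 (1.23 to 1.47), and within cluster 8 it was 1.70 (1.61 to 1.79).

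Markers of other cell types differed between the libraries in these states too. The 10 erythroid markers summed to 363 CPM in WT and 741 CPM in KO activated, 323 and 1852 CPM in cycling-like, and 358 and 790 CPM in effector Treg-like barcodes, with none at 0. The 8 B cell markers were lower in KO, at 167 and 83.9, 247 and 82.4, and 398 and 170 CPM in the same order. The 5 NK or ILC markers were lower in KO in activated (178 and 85.1 CPM) and higher in effector Treg-like barcodes (189 and 335 CPM). In the unnamed T lineage clusters the erythroid markers were at 2152 CPM in WT and 11519 CPM in KO in cluster 2. They were at 3093 and 2980 CPM in cluster 4, 1289 and 27397 CPM in cluster 7, and 607 and 1056 CPM in cluster 14. Dendritic cell markers in cluster 2 were at 5248 and 235 CPM, and neutrophil markers in cluster 7 at 16435 and 5208 CPM. The part of these markers in the member ratios was not tested.

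The levels put the states in a different order in each library. In WT the 8 GTPases were highest in effector Treg-like barcodes at 495 CPM (485 to 505), followed by resting Treg-like at 454 CPM. Cycling-like at 310 CPM (299 to 322) and activated Treg-like at 300 CPM (285 to 315) overlapped. In KO resting Treg-like barcodes came first at 908 CPM, then effector Treg-like at 764 CPM (736 to 792), cycling-like at 583 CPM (567 to 600) and activated Treg-like at 549 CPM (535 to 564), with no overlap between neighbours. The difference in order was read from 1 library each.

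Single members followed the same line with exceptions. Gbp2 had ratios of 3.02 (2.49 to 3.69) in activated, 2.99 (2.56 to 3.50) in cycling and 2.01 (1.78 to 2.27) in effector Treg-like barcodes. Iigp1 had ratios of 2.71 (1.93 to 3.91), 3.81 (2.81 to 5.23) and 2.93 (2.36 to 3.62) in the same order. Gbp3 was the exception, since outside the resting class its ratio interval held 1 in activated (1.07, 0.841 to 1.38), cycling (1.02, 0.838 to 1.25) and effector Treg-like barcodes (1.13, 0.931 to 1.37). Irgm1 held 1 only in activated Treg-like barcodes among these states, at 1.22 (0.903 to 1.67), and its ratio was 1.82 (1.37 to 2.43) in cycling-like barcodes. The number of members past 2-fold upwards was 4 in activated, 5 in cycling and 2 in effector Treg-like barcodes, against 0.935%, 1.76% and 2.72% of all genes with 200 UMIs in these classes.

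In WT Cxcl10 was lowest in activated and resting Treg-like barcodes, at 4.58 CPM (2.94 to 6.82) and 6.23 CPM, and highest in effector Treg-like barcodes, at 13.3 CPM (11.7 to 15.0). In KO the 3 other states lay at 20.3 to 21.5 CPM, below the 29.6 CPM of resting Treg-like barcodes. The ratio was 4.43 (2.89 to 7.09) in activated, 2.38 (1.81 to 3.14) in cycling and 1.56 (1.20 to 2.01) in effector Treg-like barcodes. The last value joined unlike clusters: in cluster 3 the ratio was 4.07 (2.84 to 5.71), from 173 WT and 43 KO UMIs, whereas in cluster 8 it was 0.936 (0.621 to 1.38), from 92 and 37 UMIs. In the resting Treg-like class many Cxcl10 UMIs came from few barcodes, as given below. Counting intervals do not cover such clumping, and the difference between clusters 3 and 8 was not tested.

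**Figure D2:**
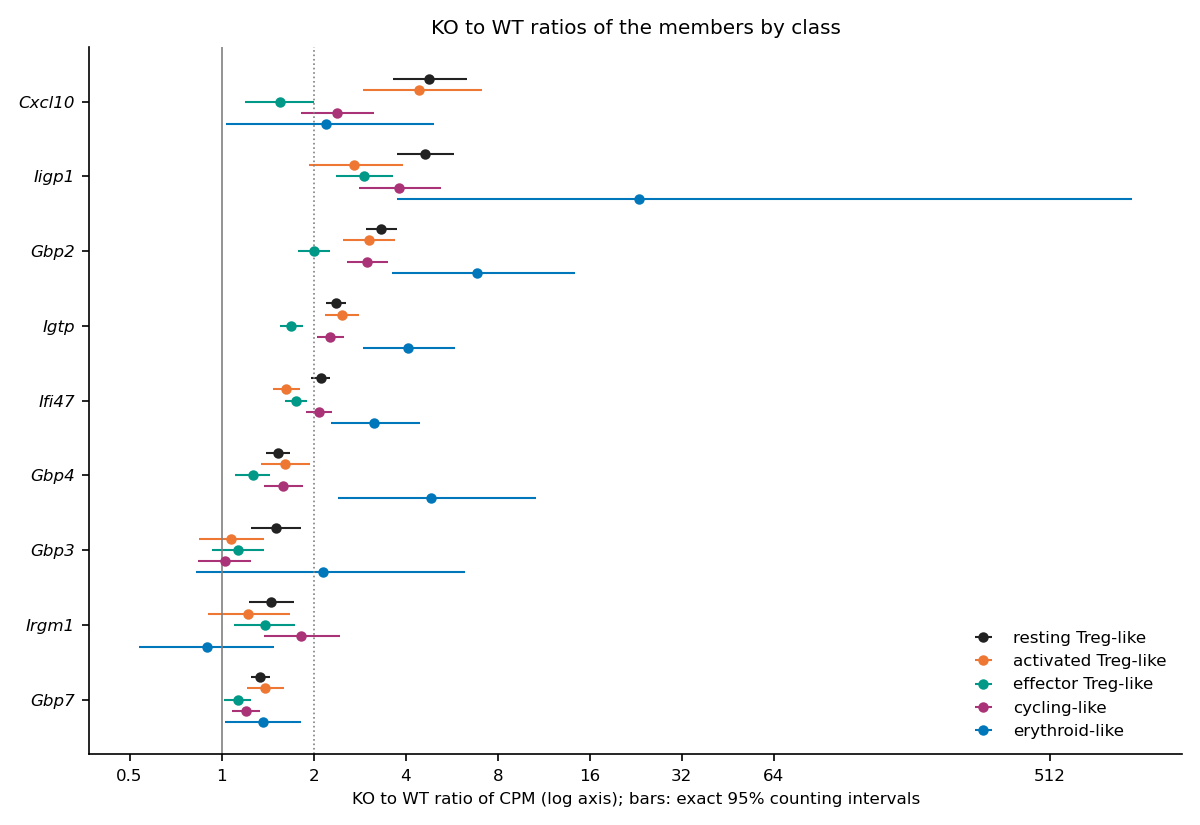
KO to WT ratio of CPM (x axis, log scale) for 9 members (rows) in 5 classes (colours), with exact 95% counting intervals as bars, a solid line at a ratio of 1 and a dotted line at 2. Cxcl10, Iigp1 and Gbp2 lie farthest right in resting Treg-like barcodes, and Gbp3, Irgm1 and Gbp7 nearest to 1.

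Over all kept barcodes the same members led. The libraries differed in cell make-up there, with 2372 WT and 475 KO effector Treg-like barcodes. Ratios over all kept barcodes also carry that difference. Iigp1 was 3.59-fold higher in KO (3.24 to 3.98), Gbp2 2.62-fold (2.48 to 2.77), Cxcl10 2.49-fold (2.24 to 2.77) and Igtp 2.07-fold (2.00 to 2.15). Ifi47 was 1.91-fold higher, Gbp4 1.46-fold, Irgm1 1.41-fold and Gbp7 1.18-fold. Gbp3 had a ratio of 1.05, whose interval (0.965 to 1.14) held 1. Thus 4 of the 9 members passed 2-fold upwards, as did 1% of 10501 genes, and 3.17% of genes passed it downwards.

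Members were next counted per barcode at equal depth. Each barcode was thinned to 1000 UMIs, which left out 3 of 2154 WT and 34 of 4524 KO resting Treg-like barcodes. At least 1 GTPase UMI was then found in 32.3% (30.3 to 34.3) of WT and 49.8% (48.3 to 51.3) of KO barcodes. Without thinning the shares were 71.8% and 83.4%, at median depths of 4107 and 3737 UMIs. At least 3 GTPase UMIs were found in 2.51% (1.89 to 3.26) of WT and 10.8% (9.93 to 11.8) of KO barcodes. The mean was 0.452 GTPase UMIs per barcode in WT and 0.939 in KO. A higher mean raises both shares, so they do not show how the difference was spread over barcodes.

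For Cxcl10 the thinned shares were 0.511% (0.256 to 0.913) of WT and 2.29% (1.88 to 2.78) of KO barcodes. Unthinned, 31 of 2154 WT barcodes (1.44%) and 280 of 4524 KO barcodes (6.19%) had a Cxcl10 UMI. Erythroid-like barcodes, which should lack a T cell's own RNA, gave thinned shares of 0.866% (0.105 to 3.09) in WT and 1.35% (0.546 to 2.77) in KO, at median depths of 5419 and 2404 UMIs, against 4108 and 3759.5 in the resting Treg-like barcodes. The WT share of Cxcl10 in resting Treg-like barcodes lay inside the wide interval of the erythroid-like share. These WT shares could therefore not be told apart. The KO share overlapped that of erythroid-like barcodes in its interval. The erythroid-like barcodes also held T lineage markers, at 11.3% in WT and 28.2% in KO of the level in the T lineage clusters. As CPM, KO Cxcl10 in resting Treg-like barcodes, 29.6 (27.2 to 32.2), lay above that in erythroid-like barcodes, 9.66 (6.19 to 14.4), whereas in WT the values of 6.23 (4.73 to 8.05) and 4.40 (2.20 to 7.88) overlapped. For the GTPases the erythroid-like shares were 11.3% (7.49 to 16.1) and 30.2% (26.2 to 34.3), below those of resting Treg-like barcodes in both libraries.

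Cxcl10 was also the most concentrated member. The 1% of resting Treg-like barcodes with the most Cxcl10 UMIs held 43.3% of its UMIs in KO (45 barcodes) and 84.5% in WT (22 barcodes), where only 31 barcodes had any. A single KO barcode held 28 UMIs, and 17 KO barcodes held 5 or more. The corresponding KO shares were 23.2% for Iigp1, 17.0% for Gbp2 and 8.86% for Ifi47. Genes with few UMIs reach higher shares by this measure.

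**Figure D3:**
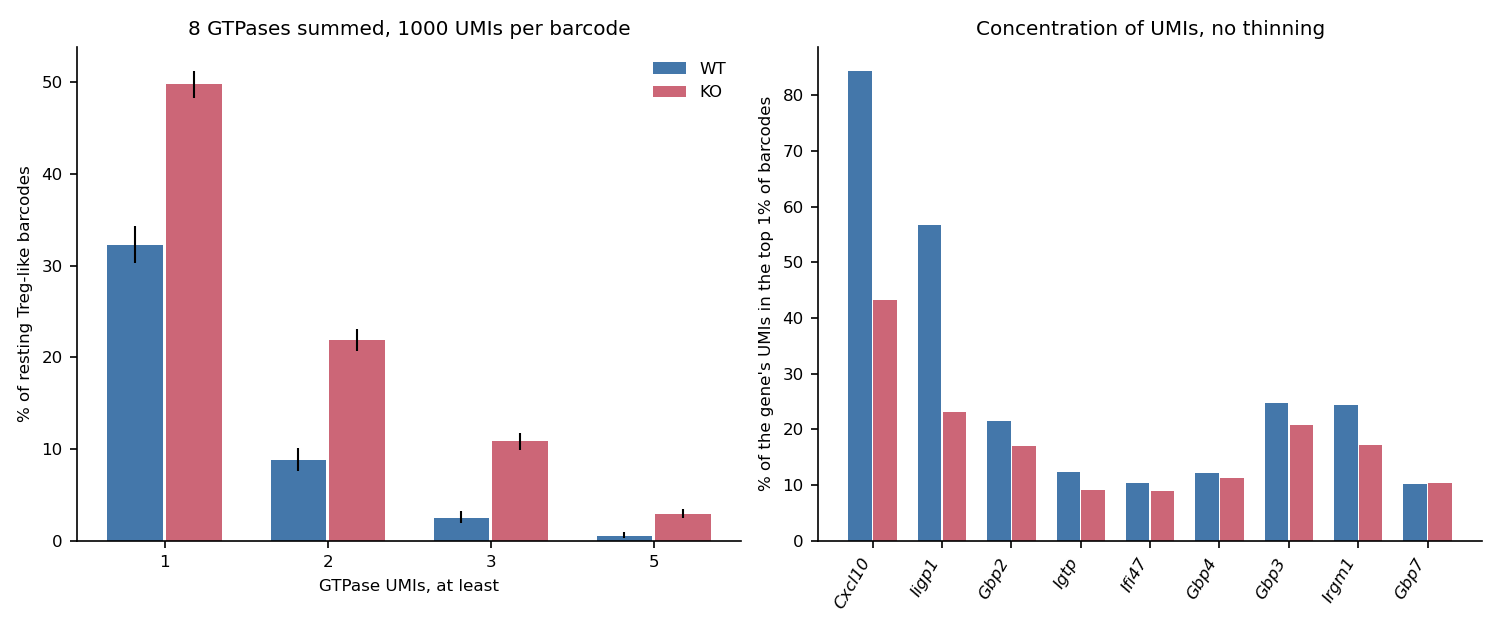
Left, share of resting Treg-like barcodes (y axis, %) with at least 1, 2, 3 or 5 UMIs of the 8 GTPases (x axis) after thinning to 1000 UMIs, with exact binomial 95% intervals. Right, share of each member's UMIs (y axis, %) in the 1% of barcodes that held most of it, for WT (blue) and KO (red), which is highest for Cxcl10.

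Within the resting Treg-like class barcodes with a UMI of one member more often had a UMI of another. After thinning, KO barcodes with a Cxcl10 UMI had a UMI of the GTPases in 72.8% (63.2 to 81.1) of 103 cases, those without one in 49.3% (47.8 to 50.8). KO barcodes with an Iigp1 UMI had a UMI of another GTPase in 77.9% (71.8 to 83.3) of 213 cases, those without in 47.3% (45.8 to 48.8). In WT, 60.9% (38.5 to 80.3) of the 23 barcodes with Iigp1 had another GTPase, against 31.6% (29.6 to 33.6) without. For Cxcl10 in WT, 11 barcodes were too few, as the interval ran from 16.7% to 76.6%. These shares describe cells of 1 library each.

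The class was also split by a UMI of Ly6c1, one of its leading genes. The GTPase ratio was 1.86 (1.46 to 2.40) in thinned barcodes with Ly6c1 and 2.06 (1.92 to 2.22) in those without. Within each library the GTPase level was higher with Ly6c1, at 740 against 438 CPM in WT and 1379 against 903 CPM in KO.

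Barcodes of other lineages also had higher member levels in KO. The 8 GTPases stood at 97.3 CPM (85.4 to 110.3) in WT and 256 CPM (236 to 277) in KO erythroid-like barcodes, a ratio of 2.63 (2.27 to 3.06). This class joined unlike clusters, with GTPase ratios of 3.15 (2.67 to 3.74) in cluster 9 and 1.46 (1.04 to 2.08) in cluster 10. In neutrophil-like barcodes they stood at 80.0 and 245 CPM, a ratio of 3.06 (2.30 to 4.12). In B cell-like barcodes, with 47 and 35 UMIs, the ratio of 0.986 (0.618 to 1.56) held 1. Erythroid-like barcodes held 11 WT and 75 KO UMIs of Gbp2, a ratio of 6.85 (3.62 to 14.3). For Igtp, 43 and 174 UMIs gave 4.07 (2.90 to 5.82). In cluster 9 the Gbp2 ratio was 9.48 (4.30 to 24.7) and the Igtp ratio 6.06 (4.04 to 9.37), whereas in cluster 10 both intervals held 1, at 2.71 (0.914 to 10.9) and 1.14 (0.590 to 2.32). Of the 2 members with 200 UMIs there, Igtp and Gbp7, 1 (Igtp) passed 2-fold upwards, as did 2.4% of genes. Irgm1, with 36 and 32 UMIs, was the member with a ratio under 1, 0.893 (0.537 to 1.48).

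T lineage RNA moved with these values in cluster 9 but not in cluster 10. In erythroid-like barcodes the T lineage markers were at 612 CPM in WT and 1429 CPM in KO, a ratio of 2.34 (2.20 to 2.48). The ratio of these markers was 3.17 (2.95 to 3.41) in cluster 9 and 0.898 (0.800 to 1.01) in cluster 10. Relative to the T lineage clusters of the same library, the markers reached 11.3% in WT and 28.2% in KO, and the GTPases 22.9% (20.1 to 26.0) and 34.9% (32.2 to 37.7). The share of each GTPase was not uniform: in WT it was 11.7% for Gbp2, 35.8% (28.6 to 44.2) for Gbp7 and 88.7% (61.7 to 124) for Irgm1. In neutrophil-like barcodes the T lineage markers had a KO to WT ratio of 2.22 (1.99 to 2.49). The unnamed cluster 11, also of another lineage, had 283 WT and 440 KO GTPase UMIs, a ratio of 1.49 (1.28 to 1.73). Its T lineage markers had a ratio of 1.01 (0.926 to 1.09). What part T cell RNA has in the member levels of these barcodes was not tested.

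Cxcl9 was rare everywhere, with 8 UMIs in WT and 15 in KO over all kept barcodes, and a ratio of 1.78 (0.708 to 4.85). In WT, 7 of the 8 UMIs came from 1 barcode of the unnamed cluster 11, whose leading genes were Prtn3, Elane, Mcpt8 and Lyz2. In KO, 13 of the 15 came from 8 barcodes of the unnamed cluster 2. The remaining 3 UMIs lay in clusters 3, 5 and 11, 1 in each. These UMIs are too few for a comparison of Cxcl9 between the libraries.

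The receptor and other genes of the pathway were followed in the resting Treg-like class. Cxcr3, which binds both chemokines, went the other way. It had 95 UMIs in WT and 33 in KO, or 10.2 and 1.73 CPM, a ratio of 0.170 (0.111 to 0.255). Over all kept barcodes, where the libraries differed in cell make-up, it had 3215 and 257 UMIs, a ratio of 0.0759 (0.0666 to 0.0862). Cxcr3 was a marker of effector Treg-like barcodes and was left out of the clustering. Of the other genes of the Cxcr3 axis, Ccl5, a chemokine of effector T cells, had 215 and 65 UMIs and a ratio of 0.148, and Cxcl16 had 2 and 1 UMIs.

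Of the interferons, Ifng had 12 UMIs in WT and 36 in KO in this class, a ratio of 1.47 (0.746 to 3.10). Over all kept barcodes, where the libraries differed in cell make-up, it had 409 and 177 UMIs, a ratio of 0.411 (0.342 to 0.491). The 9 type I and type III interferon genes listed had no UMI in the class. Of the 7 receptor and kinase genes, 1 was higher and 6 were lower in KO, with a median log2 ratio of -0.27 and none past 2-fold. The 3 with most UMIs had ratios of 0.830 (Jak1), 0.938 (Ifngr1) and 1.04 (Ifnar2).

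The transcription factors of the pathway had a median log2 ratio of 0.43, with 8 of 9 measured genes higher and 2 past 2-fold. Those were Irf7, a factor of type I interferon responses, at 2.14 (1.90 to 2.41) and Irf8, a factor best known in myeloid and B cells, at 2.51 (2.16 to 2.93). Irf1, a target that drives further targets, was 1.79-fold higher. Among 6 inhibitors, 5 were higher and 2 past 2-fold: Socs1, a brake on JAK kinases, at 2.52 (2.23 to 2.85) and Usp18, a brake on the type I receptor, at 2.69 (2.19 to 3.34).

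The other interferon GTPases were less uniform than the members. Of 11 with 50 UMIs, 8 were higher and 3 lower, with a median log2 ratio of 0.23. Gbp10 (2.57) and Tgtp1 (2.06) were past 2-fold, but each is close in sequence to other genes, Gbp6 and Tgtp2 among them, so their reads may be split. The gene with most UMIs, 9930111J21Rik2, had a ratio of 0.859. Of 14 measured type I interferon-stimulated genes all were higher, with a median of 1.22, and 6 of the 12 with 200 UMIs were past 2-fold. Ifit3 and Oasl2, both antiviral, had ratios of 4.52 each, Isg15, a ubiquitin-like modifier, 2.76, Rtp4 2.69, Ifit1 2.40 and Bst2, a tether of budding virions, 2.28.

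Antigen presentation genes were all higher, 12 of 12, yet none passed 2-fold, and their median log2 ratio was 0.50. Of those with most UMIs, H2-K1 had a ratio of 1.15, B2m 1.55 and H2-D1 1.16. The 8 genes for the autophagy and ubiquitin machinery that handles the GTPases on vacuoles had a median of 0.15, with 6 higher and 2 lower and none past 2-fold.

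**Figure D4:**
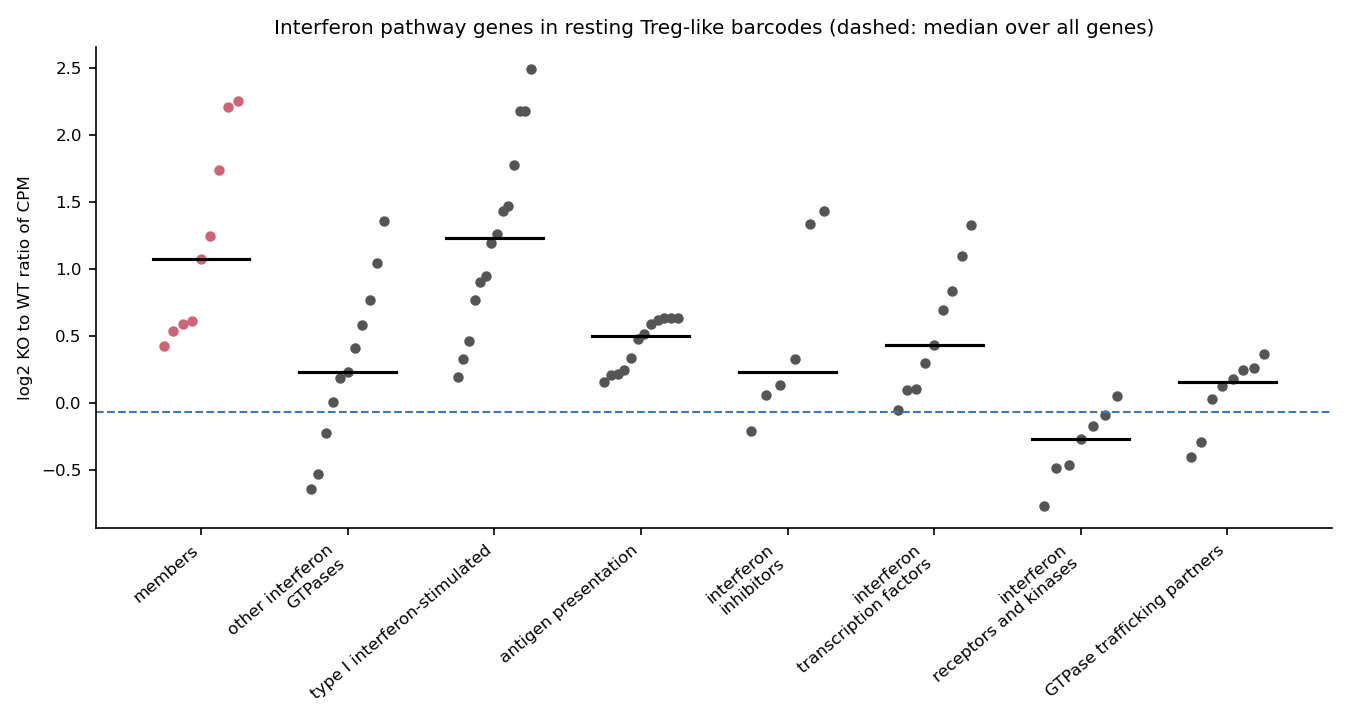
log2 of the KO to WT ratio (y axis) in resting Treg-like barcodes for each gene with 50 UMIs, by pathway list (x axis). Points are genes, bars are list medians and the dashed line is the median over all genes at -0.07. The members and the type I interferon-stimulated genes have the highest medians, 1.08 and 1.22, and the receptors and kinases the lowest of the 8 lists drawn, -0.27. The Cxcr3 axis, with a median of -2.54 over 3 genes, and the interferon genes, with none at 50 UMIs, are not drawn.

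The genes most like the summed GTPases in pattern were found over 23 clusters split by library, each with at least 50 barcodes, by Pearson's r of log2(CPM + 1) among 8915 genes. They were Zbp1 (r = 0.969), a sensor of nucleic acids, then H2-T22 (0.965), H2-K1 (0.965), and with r from 0.948 to 0.957 Pim1, Tapbp, Rras2, B2m, Ms4a6b, H2-Q4 and Tbc1d10a. The clusters share their library and differ in depth and in T lineage RNA, so r is a description. Among the members, Ifi47 was nearest to the sum, which includes it, at 0.974, and Irgm1 farthest at 0.778. Cxcl10, which is not in the sum, had r = 0.682 and Cxcl9 r = -0.10.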

How the data were processed

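Droplet libraries (10x Genomics) of sorted splenic Tregs, 1 WT and 1 KO, had been sequenced and counted by the authors with Cell Ranger 5.0.1 on mm10 according to the submitters' processing notes. The deposited values are raw UMI counts per gene and barcode, whole numbers, with no gene, mitochondrial or doublet filter applied. They were used unchanged. Samples were grouped by the genotype label.

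Barcodes under 300 genes or over 5% mitochondrial UMIs were left out, leaving 8053 WT and 13767 KO barcodes. Doublets were then removed by Scrublet score in scanpy 1.11.5, 5% of WT and 8% of KO (403 and 1101), as fixed shares rather than a caller's threshold. The study's doublet counts give these shares of the deposited barcodes, whereas its methods assign them to the genotypes the other way round. Of the 70 barcode sequences in both libraries, 22 were kept in both. Counts were scaled to 10000 and log-transformed, 2000 variable genes clipped at 10 gave 30 components (scikit-learn 1.9.0), and a graph over 20 neighbours was clustered by Leiden (igraph 0.11.9) at resolution 0.5, without batch correction. The members, the pathway genes and the naming markers were left out of the variable genes. Clusters were named from marker lists by the mean log2 fold of the list (at least 0.5 and 0.3 above the next list, with at least 50 barcodes). A cluster counted as another lineage if its T lineage mean was under -1 or its best list was over 5. T lineage clusters could take only the name of a T cell state, and others were named only with a T lineage mean under -1. At least 3 markers had to be detected, and no other list could have more markers among the 10 leading genes. Shallow clusters also needed a marker among those genes. This naming rule was set after the clusters had been seen.

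Sums of UMIs over the barcodes of a class, by library, were given as CPM with exact Poisson intervals, ratios with exact conditional binomial intervals, and shares with Clopper-Pearson intervals (scipy 1.17.1). With 1 library per genotype no test was run and no p-value is given. A gene counts as past 2-fold at a CPM ratio of at least 2 or at most 0.5 with 200 UMIs over both libraries. List medians used genes with 50 UMIs and 0.5 added to each sum. A count of 0 is given its limit at 3 counts. Ratios and their intervals were checked on simulated independent Poisson counts, and thinning on a simulated matrix. These checks do not cover clumping of UMIs over barcodes.

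The members and the lists were chosen with earlier results of these data known. Named are the members, the 3 genes of each list with most UMIs or those past 2-fold, the Cxcr3 axis, Ifng, Irf1, Socs1, Zfp335 and Foxp3, and the 10 genes most alike in pattern. Where a list is given with fewer names, these come first in that order, and Foxp3 was added after its values were seen. A further gene of this rule is not reported here. Promoter windows are RefSeq's, on GRCm38.p6, and the 50 bases after each start were left out. Alternatives covered the doublet, mitochondrial and gene filters, resolution, clustering genes, CPM total, averaging and thinning.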

Additional observations from a re-analysis of the deposited data

Results flagged for a closer look

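In B cell-like barcodes Gbp7 had 16 UMIs in WT and 2 in KO, a KO to WT ratio of 0.166 (0.0185 to 0.704), whereas it was 1.34 (1.25 to 1.44) in resting Treg-like barcodes. The ratios went in opposite directions, and the difference between them was not tested. The class held 43 WT and 33 KO barcodes.

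Barcodes over the mitochondrial limit, 6468 in WT and 4364 in KO, were used in no comparison above. Among them the 8 GTPases had a KO to WT ratio of 1.86 (1.79 to 1.94) and the 2 chemokines a ratio of 2.02 (1.66 to 2.46). Iigp1 had the highest ratio there, 4.04 (3.19 to 5.15), followed by Gbp2 at 3.02 (2.64 to 3.46) and Igtp at 2.61 (2.38 to 2.87).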

How the results depend on the processing

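No paired analysis was possible because each genotype has 1 library, and no replicate could be left out. Of 308 values recomputed under the alternatives, 282 stayed within the counting interval of the reported value (medians within 0.1, counts within 1.5 times), and 26 moved beyond it or to the other side of a ratio of 1. The latter were Gbp3 and Cxcl9 over all kept barcodes, whose reported intervals hold 1: Gbp3 went from 1.05 to 0.998 in named T clusters, an alternative chosen after seeing the data, and Cxcl9 from 1.78 to 0 with thinning, with a highest value of 2.91. No ratio whose interval left out 1 changed direction. Some of the 282 agreements were fixed in advance, so the tally overstates how stable the values are. The limit of 200 UMIs left each member ratio it covered unchanged. Over all kept barcodes, the resolution and the clustering genes could not change a ratio. The GTPase ratio in resting Treg-like barcodes moved from 2.00 to 2.08 with up to 10% mitochondrial UMIs and to 2.08 with barcodes thinned to 1000 UMIs. Over all kept barcodes it moved from 1.75 to 1.72 with at least 1000 genes per barcode, and the chemokine ratio moved from 2.48 to 1.98 with thinning. The gain in the share of resting Treg-like barcodes with a GTPase UMI, 17.5 points, was 13.6 with thinning to 500 UMIs and 11.6 without thinning. Over all kept barcodes that gain of 14.6 points was 10.8 and 4.85. The median log2 ratio of the other interferon GTPases, 0.23, was 0.41 for genes with 200 UMIs. The causes were not tested. The number of members past 2-fold was 5 in resting Treg-like barcodes under every alternative run and 4 or 5 over all kept barcodes. Depth limits Cxcl9 and the small classes. Genotype and library cannot be told apart.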
